A study of Mus musculus with 16 samples.

Results

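The genes described here are 10 regulators of the G1 phase of the cell cycle: the D-type cyclins Ccnd2 and Ccnd3, their kinases Cdk4 and Cdk6, the kinase inhibitors Cdkn1a (p21), Cdkn1b (p27), Cdkn2c (p18) and Cdkn2d (p19), the retinoblastoma gene Rb1 and the transcription factor gene Myc. They were taken by name, with earlier results of these data known, and all 10 were present among the 11464 genes of the deposited tables. RNA was sequenced from sorted CD4+ T cells of spleen and lymph node, as regulatory cells (Treg, FOXP3+) and conventional cells (Tcon, FOXP3-). The mice were B6.Cg-Foxp3tm2Tch/J, which carry a FOXP3-IRES-GFP reporter that marks cells with Foxp3 transcription, and all groups had the genotype WT in the labels. For 14 days they received 50 mg/kg venetoclax, a drug that blocks BCL-2 (a protein that keeps lymphocytes alive), or vehicle. The 4 groups were Treg from venetoclax-treated mice, Treg from vehicle-treated mice, Tcon from venetoclax-treated mice and Tcon from vehicle-treated mice, with 4 biological replicates each and 16 libraries in all. Replicate numbers 1 to 4 of each treatment occur in both subsets under a shared code.

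D-type cyclins bind CDK4 or CDK6, and the active complexes phosphorylate the retinoblastoma protein, which then releases E2F factors that switch on genes for DNA replication. The INK4 inhibitors p18 and p19 bind CDK4 and CDK6 themselves, while the CIP/KIP inhibitors p21 and p27 bind cyclin-kinase complexes and hold back CDK2. In T cells, antigen receptor and interleukin-2 signals raise D-type cyclins and Myc, and resting T cells hold much p27, whose protein is removed largely by ubiquitin ligases after stimulation.

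The RefSeq promoter table of GRCm38.p6 held a promoter for 7 of the 10 genes (10 promoters in all), each running from 250 bases before to 50 bases after the annotated start. No promoter was listed for Ccnd2, which changed in both subsets, nor for Rb1 or Myc. The printed promoters belong to the listed genes that changed in at least 1 subset (Ccnd3, Cdk6, Cdkn1b and Cdkn2d) and to Cdk4. The Cdk4 promoter holds the largest number of MYC-type E-boxes among these promoters. Capitals mark matches to 1 of 5 motifs searched on both strands: the E-box CACGTG, the STAT motif TTCNNNGAA, the FOXO motif GTAAACA and the E2F motifs TTTCGCGC and TTTGGCGC. Coordinates are chr17:47504801-47505100 for the first of the 2 promoters of Ccnd3, chr10:127063285-127063584 for Cdk4, chr5:3343643-3343942 for Cdk6, chr6:134920151-134920450 for Cdkn1b, all on the plus strand, and chr9:21291160-21291459 on the minus strand for Cdkn2d.
Ccnd3: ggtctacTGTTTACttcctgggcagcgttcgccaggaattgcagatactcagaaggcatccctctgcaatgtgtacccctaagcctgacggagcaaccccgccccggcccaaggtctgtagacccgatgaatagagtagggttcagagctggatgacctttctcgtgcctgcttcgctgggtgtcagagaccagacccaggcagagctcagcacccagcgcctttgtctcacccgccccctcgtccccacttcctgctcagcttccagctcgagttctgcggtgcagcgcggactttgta
Cdk4: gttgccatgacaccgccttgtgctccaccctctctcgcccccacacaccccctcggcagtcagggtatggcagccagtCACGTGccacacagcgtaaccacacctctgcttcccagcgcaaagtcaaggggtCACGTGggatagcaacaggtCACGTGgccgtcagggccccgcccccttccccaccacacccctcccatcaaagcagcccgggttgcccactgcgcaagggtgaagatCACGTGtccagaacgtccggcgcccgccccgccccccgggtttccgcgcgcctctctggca
Cdk6: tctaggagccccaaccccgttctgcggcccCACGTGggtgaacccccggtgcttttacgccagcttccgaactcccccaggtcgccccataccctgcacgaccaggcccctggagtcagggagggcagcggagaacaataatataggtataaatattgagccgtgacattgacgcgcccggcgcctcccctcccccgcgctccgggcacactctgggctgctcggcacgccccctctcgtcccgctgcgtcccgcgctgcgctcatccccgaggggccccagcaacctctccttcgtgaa
Cdkn1b: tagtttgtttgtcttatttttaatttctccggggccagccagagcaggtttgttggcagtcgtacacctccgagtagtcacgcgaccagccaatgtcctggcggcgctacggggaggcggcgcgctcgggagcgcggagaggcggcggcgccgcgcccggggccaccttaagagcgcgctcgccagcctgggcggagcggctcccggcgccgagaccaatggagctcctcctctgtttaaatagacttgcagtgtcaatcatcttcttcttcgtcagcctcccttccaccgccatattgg
Cdkn2d: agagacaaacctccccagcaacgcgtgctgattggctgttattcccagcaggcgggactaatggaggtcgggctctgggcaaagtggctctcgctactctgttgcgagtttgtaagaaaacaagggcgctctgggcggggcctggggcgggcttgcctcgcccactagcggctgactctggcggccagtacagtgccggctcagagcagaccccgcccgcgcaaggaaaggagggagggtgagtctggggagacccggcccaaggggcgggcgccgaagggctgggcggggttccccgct

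Cdk4 held 4 E-boxes, at positions -172, -118, -98 and -11 from the start. Cdk6 held 1 E-box, at -220, and the second promoter of Cdkn2c held 1 at position 34. The first promoter of Ccnd3 held a FOXO match on the minus strand, at -243, and its second promoter held none of the motifs. Neither Cdkn1b nor Cdkn2d nor either promoter of Cdkn1a held any. Of all 32851 promoters in the table, 7.15% held the E-box, 8.3% the STAT motif, 3.65% the FOXO motif and 0.813% at least 1 of the E2F motifs. A match describes letters in this window only.

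The libraries held 21335006 to 25027038 reads in genes per Treg library and 22982210 to 24960570 per Tcon library. Values are normalized read counts, in which the authors divided each library's reads by 1 size factor, and a gene changed where limma's adjusted p was under 0.05 over all genes of the table. Foxp3 averaged 21360 ± 141 in Treg of venetoclax-treated mice and 19840 ± 1443 in Treg of vehicle-treated mice, against 721 ± 24.1 and 688 ± 50.9 in Tcon of venetoclax-treated and vehicle-treated mice (SD, n = 4 each), in tables that were normalized separately. Of 29 marker genes of other cells (CD8 T, B, plasma, NK, myeloid, dendritic, erythroid and platelet), 13 were in the Treg table and 14 in the Tcon table. limma, edgeR and DESeq2 called none of them in either subset (3 in Treg and 1 in Tcon had an unadjusted limma p under 0.05), and their summed level in CPM (reads scaled to the same library total) was 37.7 to 90.8 in Treg of venetoclax-treated mice, 40.7 to 56.6 in Treg of vehicle-treated mice, 46.0 to 91.0 in Tcon of venetoclax-treated mice and 51.9 to 71.6 in Tcon of vehicle-treated mice. Ebf1, Pax5, Sdc1, Tnfrsf17, Ncr1, Klre1, Cd14, S100a8, Siglech, Clec9a, Ppbp and Pf4 are among the markers that neither table lists. Others were present. In Tcon, mean normalized counts with venetoclax and vehicle were 450 and 386 for Klrb1c, 401 and 428 for Cd8b1, 254 and 304 for Jchain, and 218 and 166 for Itgam. In Treg they were 306 and 361 for Cd8b1 and 332 and 343 for Cd79b. The labels give no sex, and the Y-linked gene Ddx3y had more than 1 read in 3 of 4 venetoclax codes and 1 of 4 vehicle codes, and at most 1 read per library in the others. Venetoclax codes 1 and 3 lay between the others (1695 and 2872 normalized counts in Treg, 1468 and 3050 in Tcon, against 5539 in Treg and 6674 in Tcon of venetoclax code 2). Results are therefore also given without these libraries and with the Ddx3y level in the model where that changes them. In such bulk samples, fewer cells that express a gene and less RNA of it per cell cannot be told apart.

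Venetoclax treatment was accompanied by more Ccnd2 and Cdk6 RNA in both subsets, by more Ccnd3 and less Cdkn1b RNA in Tcon, and by less Cdkn2d RNA in Treg. In Treg, 3 of the 10 genes changed: Ccnd2 and Cdk6 were higher and Cdkn2d was lower, where 19.6% of all 11067 genes changed (10.7% higher and 8.81% lower). In Tcon, 4 of the 10 changed: Ccnd2, Ccnd3 and Cdk6 were higher and Cdkn1b was lower, where 6.91% of all 11171 genes changed (3.92% higher and 2.99% lower). With the replicate number as a block, 6 of the 10 passed in Tcon, where 16.8% of all genes did (8.92% higher and 7.9% lower). The median log2 change of the 10 genes was 0.05 in Treg and 0.21 in Tcon, beside 0.01 and 0.00 over all genes of the Treg and the Tcon table. The venetoclax libraries did not overlap the vehicle libraries for 5 of the 10 genes in Treg (3 higher, 2 lower), against 22.7% of all genes (12.0% higher, 10.7% lower). In Tcon this held for 4 of the 10 (3 higher, 1 lower), against 16.3% of all genes (8.78% higher, 7.47% lower).

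**Figure D1:**
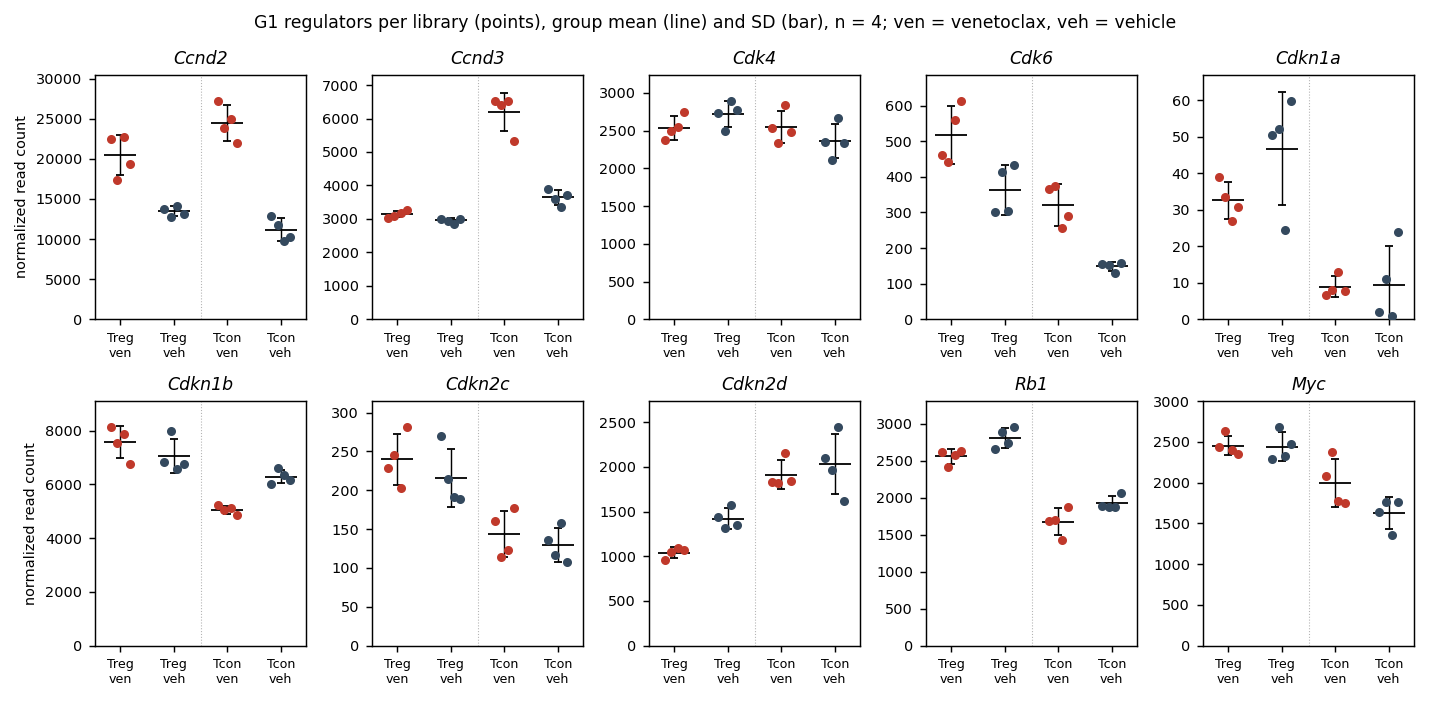
Normalized read count of each of the 10 genes in every library (y axis, linear from 0) for Treg and Tcon of venetoclax-treated and vehicle-treated mice; points are libraries, lines are means and bars are SD (n = 4). Ccnd2 and Cdk6 stand higher with venetoclax in both subsets, Ccnd3 and Cdkn1b shift in the Tcon panels, and Cdkn2d in the Treg panels.

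Ccnd2 (Entrez 12444, minus strand of chr6:127125162-127152193, GENCODE vM21 on GRCm38) encodes cyclin D2. In Treg it had 22437, 17393, 22665 and 19403 normalized counts in venetoclax libraries 1 to 4, against 13711, 12762, 14165 and 13193 in vehicle libraries. The lowest venetoclax library lay above the highest vehicle library, and the log2 change was 0.60 ± 0.08 (SE), a 1.51-fold higher level (limma, adjusted p = 0.000356). In Tcon, Ccnd2 had 27240.1, 23822, 25006 and 21948 normalized counts in venetoclax libraries, against 12869, 11796, 9791 and 10282 in vehicle libraries. Every venetoclax library of Tcon exceeded every vehicle library by a wide margin, with a log2 change of 1.14 ± 0.11 (SE), 2.20-fold (limma, adjusted p = 0.000513). Its log2 change in Tcon was within the SE of that of Cdk6.

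Cyclin D3 is encoded by Ccnd3 (Entrez 12445, plus strand of chr17:47505051-47599691). Treg had 3042, 3091, 3167 and 3258 normalized counts in venetoclax libraries, against 3012, 2947, 2859.5 and 3008 in vehicle libraries. All Treg venetoclax libraries lay above all vehicle libraries, but by little, and the log2 change of 0.09 ± 0.05 (SE) did not pass the test (limma, adjusted p = 0.191). Tcon had 6529.8, 6396, 6526 and 5342 normalized counts in venetoclax libraries, against 3909, 3607, 3356 and 3721 in vehicle libraries. There the groups were far apart, including venetoclax library 4, the lowest of its group, and the log2 change was 0.76 ± 0.08 (SE), 1.70-fold (limma, adjusted p = 0.000801).

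Of the D-type cyclin kinases, Cdk6 (Entrez 12571, plus strand of chr5:3341485-3531008) was higher with venetoclax and Cdk4 did not pass the test. Treg had 462, 441, 559 and 614 normalized counts of Cdk6 in venetoclax libraries, against 303, 414, 303 and 433 in vehicle libraries. The gap between the groups was narrow, since venetoclax library 2 lay just above vehicle library 4, and the log2 change was 0.52 ± 0.14 (SE) (limma, adjusted p = 0.0175). This call in Treg rests on few libraries: without vehicle 1, vehicle 3 or venetoclax 4 the limma adjusted p was 0.0543, 0.0557 and 0.0531, and without venetoclax 1 and 3 it was 0.106, within a range of 0.00218 to 0.117 over 21 alternatives. In Tcon, Cdk6 had 367, 376, 256 and 289 normalized counts in venetoclax libraries, against 154, 154, 129 and 158 in vehicle libraries. All venetoclax libraries of Tcon lay well above all vehicle libraries, and the log2 change was 1.10 ± 0.14 (SE), 2.14-fold (limma, adjusted p = 0.00164).

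Cdk4 (Entrez 12567, plus strand of chr10:127063534-127067920) averaged 2538 ± 157 normalized counts in Treg of venetoclax-treated mice and 2721 ± 169 in Treg of vehicle-treated mice (SD, n = 4 each). Tcon averaged 2547 ± 214 in venetoclax-treated and 2365 ± 227 in vehicle-treated mice. The groups overlapped in both subsets, with log2 changes of -0.10 ± 0.06 (SE) in Treg and 0.11 ± 0.09 (SE) in Tcon (limma, adjusted p = 0.251 and 0.51). On the opposite strand Tspan31 overlaps 19.7% of the exonic length of Cdk4, and since no strand setting is stated, reads of the pair cannot be told apart there.

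The CIP/KIP inhibitor p27 is encoded by Cdkn1b (Entrez 12576, plus strand of chr6:134920401-134925513). Treg had 8138, 7560.4, 7878 and 6764 normalized counts in venetoclax libraries, against 6856, 7979, 6570.0 and 6777 in vehicle libraries. These groups overlapped, and the log2 change of 0.11 ± 0.07 (SE) did not pass the test (limma, adjusted p = 0.302). Tcon had 5224, 5034, 5131 and 4866 normalized counts in venetoclax libraries, against 6033, 6608, 6358 and 6179 in vehicle libraries. Here every venetoclax library lay below every vehicle library, and Cdkn1b fell by 0.31 ± 0.06 (SE) on the log2 scale (limma, adjusted p = 0.0129). Without venetoclax 1 and 3 the log2 change in Tcon was -0.35 with a limma adjusted p of 0.12, the only loss of this call apart from the fit on codes with at most 1 Ddx3y read per library.

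Cdkn1a (Entrez 12575, plus strand of chr17:29090976-29100727), which encodes p21, a main transcriptional target of p53, was the scarcest of the 10. Treg had 38.9, 33.6, 27.1 and 30.7 normalized counts in venetoclax libraries, against 50.6, 52.0, 24.3 and 59.9 in vehicle libraries. Vehicle library 3 lay below all venetoclax libraries and the other vehicle libraries above them, and the log2 change of -0.45 ± 0.26 (SE) did not pass the test (limma, adjusted p = 0.256). Without vehicle library 3 it was -0.73 (limma, adjusted p = 0.0354), in a range of 0.0354 to 0.713 over 20 alternatives. In Tcon only 7, 8, 13 and 8 reads were assigned to it in venetoclax libraries, against 2, 11, 1 and 24 in vehicle libraries. The vehicle libraries lay on both sides of all venetoclax libraries, and no difference was called (limma, adjusted p = 0.712). The fitted log2 change in Tcon was 0.57 ± 0.72 (SE) although the mean was 8.94 normalized counts with venetoclax and 9.46 with vehicle, and its sign turns with the method.

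Among the INK4 inhibitors, Cdkn2d (p19; Entrez 12581, minus strand of chr9:21288410-21291407) fell in Treg. It had 953, 1053, 1089 and 1069 normalized counts in venetoclax libraries, against 1441, 1319, 1573 and 1349 in vehicle libraries of Treg. The venetoclax libraries all lay below the vehicle libraries, and the log2 change was -0.45 ± 0.07 (SE), 0.734-fold (limma, adjusted p = 0.000796). In Tcon, Cdkn2d had 1834, 1815, 2157 and 1839.8 normalized counts in venetoclax libraries, against 2097, 1962, 2446 and 1623 in vehicle libraries. The vehicle libraries of Tcon spread across the whole range of the venetoclax libraries, and the log2 change of -0.08 ± 0.12 (SE) did not pass the test (limma, adjusted p = 0.766).

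Cdkn2c (p18; Entrez 12580, minus strand of chr4:109660876-109667189) averaged 239.6 ± 32.8 normalized counts in Treg of venetoclax-treated mice and 216 ± 37.6 in Treg of vehicle-treated mice (SD, n = 4 each). In Tcon it averaged 144 ± 29.8 with venetoclax and 129.8 ± 22.2 with vehicle. Groups overlapped in both subsets, with log2 changes of 0.16 ± 0.13 (SE) in Treg and 0.14 ± 0.18 (SE) in Tcon (limma, adjusted p = 0.438 and 0.718). Of the 2 INK4 genes, p19 RNA passed the test in Treg and p18 RNA did not, and the difference between these genes was not tested.

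Rb1 (Entrez 19645, minus strand of chr14:73183673-73325822), the pocket protein gene whose product restrains E2F, did not pass the test in either subset. Treg had 2620.2, 2415, 2571 and 2627 normalized counts in venetoclax libraries, against 2652, 2882, 2734 and 2955 in vehicle libraries. The venetoclax libraries of Treg lay below the vehicle libraries by a small gap, with a log2 change of -0.13 ± 0.05 (SE) (limma, adjusted p = 0.0826). Tcon had 1685, 1705, 1429 and 1870.4 normalized counts in venetoclax libraries, against 1883, 1880.2, 1868 and 2063 in vehicle libraries. Venetoclax library 4 reached into the vehicle range, and the log2 change was -0.21 ± 0.09 (SE) (limma, adjusted p = 0.179).

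Myc (Entrez 17869, plus strand of chr15:61985391-61990374) encodes a transcription factor that drives growth and, in activated lymphocytes, raises D-type cyclin and kinase RNA. Treg had 2441, 2628, 2397 and 2354 normalized counts in venetoclax libraries, against 2292, 2682, 2327 and 2471 in vehicle libraries. The groups coincided in Treg, with a log2 change of 0.01 ± 0.06 (SE) (limma, adjusted p = 0.938). Tcon had 2087, 2382, 1778 and 1755 normalized counts in venetoclax libraries, against 1635, 1768, 1353 and 1762 in vehicle libraries. Only venetoclax libraries 1 to 3 exceeded all vehicle libraries, and the log2 change of 0.29 ± 0.12 (SE) did not pass the test (limma, adjusted p = 0.17). With the replicate number as a block, both Myc and Rb1 passed in Tcon (limma, adjusted p = 0.0214 for Myc and 0.0413 for Rb1). That makes 6 of the 10 genes, where 16.8% of all genes passed in that fit. Venetoclax and vehicle libraries share only a number in the labels, and same-numbered Tcon libraries correlated unevenly (0.119 to 0.614). Over 21 alternatives the adjusted p ranged from 0.0214 to 1 for Myc and from 0.0413 to 1 for Rb1, and the block was the only one under 0.05 for either.

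**Figure D2:**
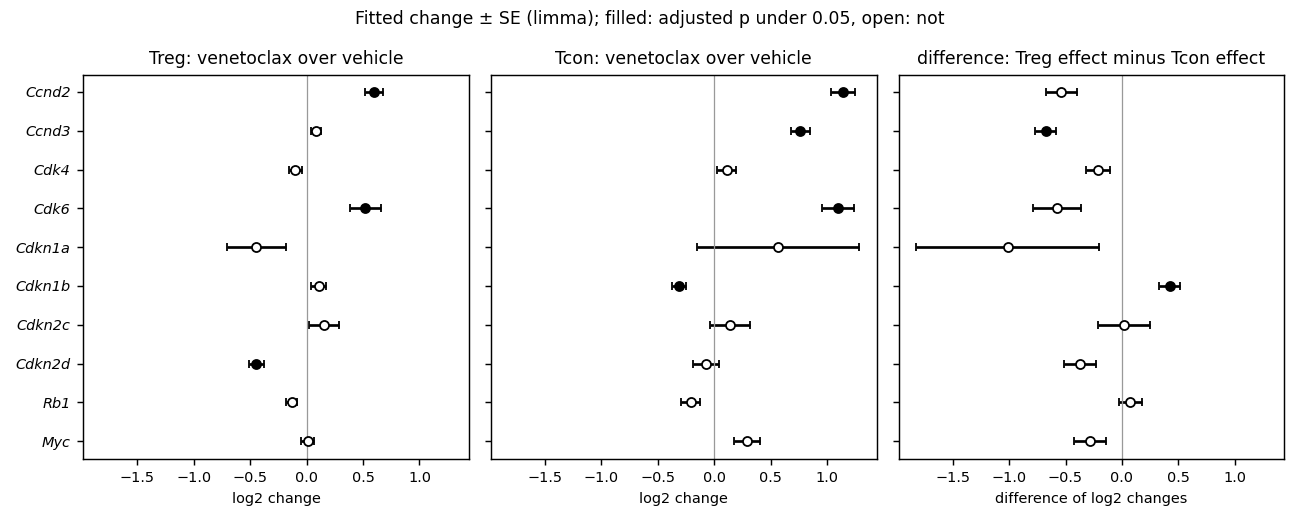
Fitted log2 change of venetoclax over vehicle with its SE for the 10 genes in Treg and in Tcon, and the difference between the 2 changes (Treg minus Tcon), on a common x axis; filled points have a limma adjusted p under 0.05. Ccnd2 and Cdk6 lie right of 0 in both subsets, and the difference is called for Ccnd3 at -0.68 and Cdkn1b at 0.42.

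Whether the venetoclax effect on the 10 genes differed between the subsets was tested as the Treg change minus the Tcon change over the 10774 genes in both tables. The main fit took all 16 libraries as independent, without a block for the code that Treg and Tcon libraries share. In it the difference passed for 2 of the 10 genes, beside 1.3% of all genes. Over all genes, 0.334% passed with a higher and 0.965% with a lower change in Treg. The fit with that block is given below. For Ccnd3, which rose in Tcon and did not pass the test in Treg, the difference was -0.68 ± 0.09 (SE) on the log2 scale (limma, adjusted p = 0.00131). For Cdkn1b the difference was 0.42 ± 0.09 (SE), where Cdkn1b fell in Tcon and its change in Treg did not pass the test (limma, adjusted p = 0.0353). This call is fragile: it was lost without any 1 of vehicle codes 1, 3 or 4 or venetoclax codes 1, 2 or 3 (limma, adjusted p from 0.072 to 0.156 in those fits, and from 0.0273 to 0.156 over all 8 fits that leave out a code). Without venetoclax 1 and 3, neither passed (limma, adjusted p = 0.145 for Ccnd3 and 0.569 for Cdkn1b).

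Without the block for the code the other differences did not pass, and the median difference of the 10 genes was -0.33 beside 0.01 over all genes. Ccnd2 differed by -0.54 ± 0.14 (SE) (limma, adjusted p = 0.0741) and Cdk6 by -0.58 ± 0.21 (SE) (limma, adjusted p = 0.301). Cdkn2d differed by -0.37 ± 0.14 (SE) (limma, adjusted p = 0.316), so without the block its change in Treg is not shown to differ from that in Tcon. With the shared code of Treg and Tcon libraries as a block, 4 of the 10 genes passed, where 3.61% of all genes did, adding Ccnd2 (limma, adjusted p = 0.0183, in a range of 0.0166 to 1 over 20 alternatives) and Cdkn2d (limma, adjusted p = 0.0399, in a range of 0.0399 to 1).

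Results were then set beside the Y-linked reads. With the log2 level of Ddx3y as a covariate, the same 3 genes passed in Treg, the same 4 in Tcon and the same 2 in the difference, where 13.8%, 2.92% and 1.34% of all genes did. In codes with at most 1 Ddx3y read per library, only 1 venetoclax library stood against 3 vehicle libraries per subset. That fit has no spread within venetoclax and cannot decide on single genes, so only log2 changes are given here. The log2 changes there were 0.50 for Ccnd2, 0.85 for Cdk6 and -0.44 for Cdkn2d in Treg. In Tcon they were 1.01 for Ccnd2, 0.55 for Ccnd3, 0.98 for Cdk6 and -0.35 for Cdkn1b. For these genes the venetoclax and vehicle libraries did not overlap over all libraries. A part of the same libraries could therefore not give another sign, and only the sizes of these changes are informative.

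Between the subsets, levels are given as CPM with no test, because the Treg and Tcon tables were normalized separately. In vehicle-treated mice, 4 genes were higher in all Treg than in all Tcon libraries: Cdk6 (15.3 ± 3.03 in Treg, 6.30 ± 0.78 in Tcon), Cdkn2c (9.11 ± 1.65 in Treg, 5.46 ± 0.73 in Tcon), Rb1 (118 ± 6.11 in Treg, 81.3 ± 5.84 in Tcon) and Myc (103 ± 8.16 in Treg, 69.0 ± 10.6 in Tcon), as mean ± SD with n = 4. Ccnd3 (125 ± 4.11 in Treg, 154 ± 14.2 in Tcon) and Cdkn2d (59.8 ± 4.25 in Treg, 85.4 ± 11.6 in Tcon) were lower in all Treg libraries. Ccnd2, Cdk4, Cdkn1a and Cdkn1b overlapped between the subsets. Under venetoclax, Cdkn1a and Cdkn1b no longer overlapped while Myc did. Cdkn1b stood at 323 ± 22.9 CPM in Treg and 215 ± 4.97 in Tcon, and Ccnd3 had 134 ± 5.29 in Treg and 263 ± 21.8 in Tcon. The ratio of Treg to Tcon means was thus 1.501 for Cdkn1b in venetoclax-treated mice and 1.117 in vehicle-treated mice, and for Ccnd3 it was 0.508 in venetoclax-treated mice and 0.808 in vehicle-treated mice.

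**Figure D3:**
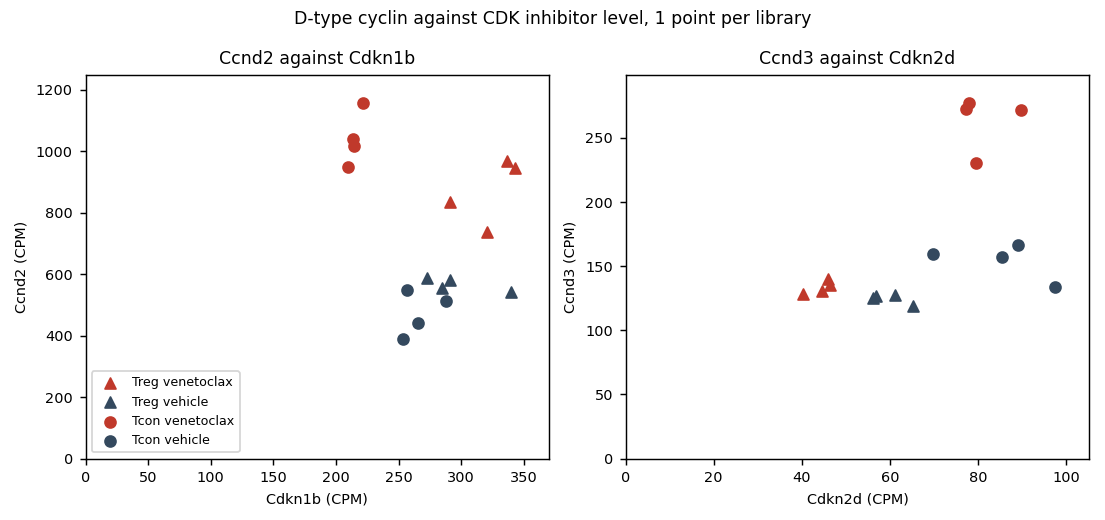
CPM of Ccnd2 against Cdkn1b (left) and of Ccnd3 against Cdkn2d (right), 1 point per library, for Treg (triangles) and Tcon (circles) of venetoclax-treated (red) and vehicle-treated (dark) mice. Tcon of venetoclax-treated mice stand alone at the highest Ccnd3, 263 ± 21.8 CPM, and the lowest Cdkn1b, 215 ± 4.97, and overlap Treg of venetoclax-treated mice in Ccnd2, while Treg of venetoclax-treated mice stand alone at the lowest Cdkn2d, 44.3 ± 2.89.

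To compare genes with each other, CPM were divided by exonic length in kilobases (RPKM). This length joins the exons of all annotated transcripts of a gene, from 1574 bases for Cdkn2d to 13989 for Cdk6. The transcripts in use can be shorter, so the order between genes depends on the annotation. In Treg of venetoclax-treated mice Ccnd2 came first at 92.6 ± 11.3, above Cdkn1b at 70.9 ± 5.04, then Myc at 38.5, Cdk4 at 33.3, Cdkn2d at 28.2, Rb1 at 18.1 and Ccnd3 at 15.2 RPKM, each apart from its neighbours. In Treg of vehicle-treated mice Cdkn1b at 65.2 ± 6.46 and Ccnd2 at 60.2 ± 2.26 RPKM overlapped at the top, and Cdkn2d (38.0), Myc (37.9) and Cdk4 (35.3) overlapped next to each other below them. In Tcon of venetoclax-treated mice Ccnd2 stood alone at 111 ± 9.27 RPKM, followed by Cdkn2d at 51.5 and Cdkn1b at 47.2, while Cdk4 (33.3), Myc (31.3) and Ccnd3 (30.0) overlapped. In Tcon of vehicle-treated mice Cdkn1b at 58.4 ± 3.39, Cdkn2d at 54.3 ± 7.39 and Ccnd2 at 50.3 ± 7.51 RPKM overlapped, and Ccnd3 at 17.6 lay below Cdk4 and Myc. Cdkn2c (2.03 to 3.80), Cdk6 (0.45 to 1.58) and Cdkn1a (0.107 to 0.555) held the last 3 places in all 4 groups, so Cdk6 had far less RNA per length than Cdk4 even where it was higher with venetoclax.

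**Figure D4:**
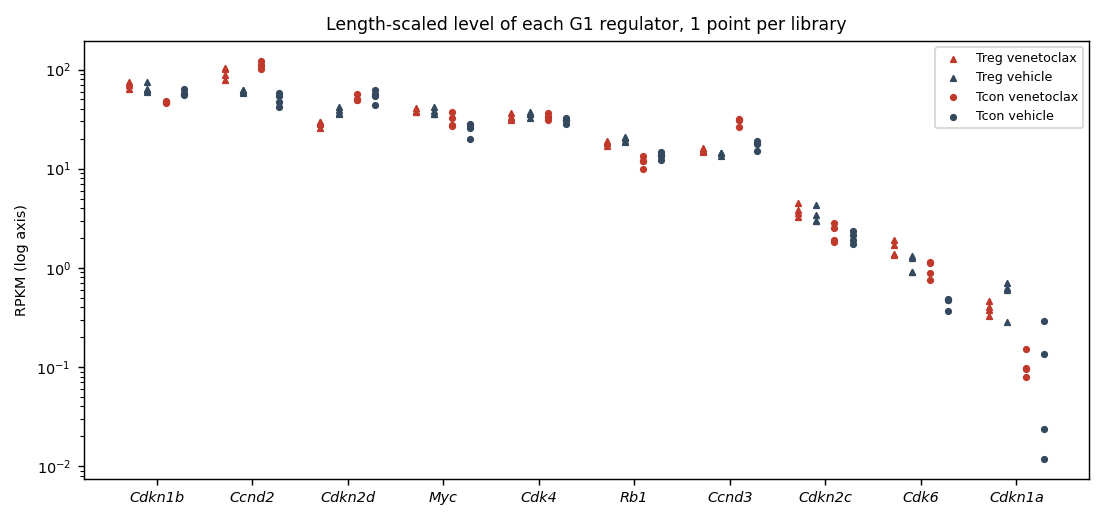
Length-scaled level of each gene (RPKM, log axis) in every library of Treg (triangles) and Tcon (circles) of venetoclax-treated (red) and vehicle-treated (dark) mice. Ccnd2 leads in both subsets under venetoclax, and Cdkn1a lies lowest in every group, with means of 0.107 to 0.555. Lengths join all annotated exons of a gene, on which the order between genes depends.

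Over all 16 libraries, the genes whose log2 CPM most resembled Ccnd2 among 9300 genes were Elovl5 (Pearson r = 0.974), Selenoi (0.961) and Atic (0.943). For Cdkn1b they were Nr1d2 (0.947), Nadk2 (0.936) and Lca5 (0.925), and for Myc Stx1a (0.956), Sec24a (0.943) and Socs3 (0.934). These values describe libraries that fall into 4 groups and carry no test.

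The other genes of the pathway are given by lists drawn up with earlier results of these data known. Among kinases, cyclins and pocket proteins of G1 and S entry, 11 of 14 were measured. Beside the counts below, 10.7% of all genes rose and 8.81% fell in Treg, and 3.92% rose and 2.99% fell in Tcon. In Treg, 1 rose and none fell: Rbl2, the pocket protein gene for p130, was 5526 ± 283 normalized counts with venetoclax and 4865 ± 265 with vehicle, a log2 change of 0.18 ± 0.05 (SE) (limma, adjusted p = 0.0287). In Tcon, 1 rose and none fell: Ccna2, the S-phase cyclin A2 gene, had 158 ± 40.6 with venetoclax and 39.99 ± 14.4 with vehicle (SD, n = 4), a log2 change of 1.99 ± 0.28 (SE) (limma, adjusted p = 0.00288). The Ccna2 call held in all 8 fits that leave out 1 library, while that of Rbl2 was lost without vehicle 3 or 4 or venetoclax 1, 3 or 4. The kinase gene Cdk2 and the cyclin E genes Ccne1 and Ccne2, which act after the D-type cyclins, did not pass in either subset, nor did Ccnd1, the third D-type cyclin gene, at 33.5 with venetoclax and 40.6 with vehicle in Treg and 27.9 with venetoclax and 44.5 with vehicle in Tcon. These genes were picked out after their values were seen.

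Of the 10 E2F and DP factor genes, 2 rose and none fell in Treg, and 6 rose and none fell in Tcon. Their median log2 changes were 0.14 in Treg and 0.51 in Tcon. Over all genes, 10.7% rose and 8.81% fell in Treg, and 3.92% rose and 2.99% fell in Tcon. The Treg genes were Tfdp2 (log2 change 0.24 ± 0.06 SE) and the repressor-type factor E2f4 (0.15 ± 0.05 SE), with limma adjusted p of 0.0148 and 0.0447. In Tcon E2f1, the activator factor that RB binds, had 179 ± 39.7 normalized counts with venetoclax and 58.3 ± 8.05 with vehicle, a log2 change of 1.59 ± 0.18 (SE) (limma, adjusted p = 0.000943). Tfdp1, a dimerization partner of E2F factors, changed by 0.53 ± 0.07 (SE) and E2f7 by 2.22 ± 0.30 (SE) in Tcon (limma, adjusted p = 0.00179 and 0.00211). The change differed between subsets for E2f1 (-1.41 ± 0.31 SE) and Tfdp1 (-0.40 ± 0.09 SE), with a limma adjusted p of 0.0298 for each. The calls of E2f1, Tfdp1 and E2f7 in Tcon held in all 8 fits that leave out 1 library, that of Tfdp2 was lost without venetoclax 4, that of E2f4 in 6 of 8 such fits, and both differences in 5 of 8. Without venetoclax 1, or with Ddx3y as a covariate, 3 of the 10 passed in Tcon, and without venetoclax 1 and 3, 1 did. Of all 11171 genes, 306 passed in Tcon without venetoclax 1, 326 (2.92%) with the covariate and 116 without venetoclax 1 and 3.

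Of 18 S-phase genes regulated by E2F, 2 rose and 1 fell in Treg and 11 rose and none fell in Tcon. The shares over all genes were 10.7% higher and 8.81% lower in Treg, and 3.92% higher and 2.99% lower in Tcon. In Treg the genes were Tyms (0.47 ± 0.11 SE), for thymidylate synthesis, Mcm6 (0.24 ± 0.07 SE), of the replicative helicase, and Pcna (-0.23 ± 0.07 SE), the polymerase clamp (limma, adjusted p = 0.0106, 0.0221 and 0.0325). In Tcon the replication licensing gene Cdc6 changed by 1.95 ± 0.23 (SE), the nucleotide reductase gene Rrm2 by 1.47 ± 0.19 (SE) and the helicase gene Mcm3 by 0.49 ± 0.07 (SE), with limma adjusted p of 0.00106, 0.0015 and 0.00328. The calls of Cdc6, Rrm2 and Mcm3 in Tcon and Tyms in Treg held in all 8 fits that leave out 1 library, those of Mcm6 and Pcna in Treg in 4 and 3. Without venetoclax 1 the Tcon count was 7 and the Treg count 1, and without venetoclax 1 and 3 the counts were 2 in Tcon and 1 in Treg. Of all 11171 genes of Tcon, 306 passed without venetoclax 1 and 116 without venetoclax 1 and 3. The numbers over all Treg genes in these fits are given in the closing section on processing, and the Treg counts are to be read beside them. The sum of 6 markers of proliferating cells (Mki67, Top2a, Birc5, Cdk1, Ccnb1 and Aurkb) was 2080 to 4719 normalized counts in Treg with venetoclax and 1742 to 2926 with vehicle, and 2503 to 4275 in Tcon with venetoclax and 548 to 958 with vehicle. limma called 0 of the 6 in Treg (as did edgeR and DESeq2, with 2 at an unadjusted limma p under 0.05) and all 6 higher in Tcon. Of 5 Treg markers, Il2ra and Tnfrsf18 were higher in Tcon with venetoclax, the first in all 8 and the second in 2 of 8 fits that leave out 1 library. Foxp3, Ikzf2 (log2 change 0.20) and Ctla4 (log2 change -0.45) were not called, and the sum of the 5 in Tcon was 3652 to 4407 with venetoclax and 3052 to 3552 with vehicle. The part of these markers in the Tcon changes of the 10 genes was not tested.

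In the MYC and MAX network 9 of 11 genes were measured, and 3 rose in Treg, 2 rose in Tcon and none fell in either. Among all genes, 10.7% rose and 8.81% fell in Treg, and 3.92% rose and 2.99% fell in Tcon. Mxd4, whose product competes with MYC for MAX, changed by 0.40 ± 0.05 (SE) in Treg and by 0.53 ± 0.09 (SE) in Tcon (limma, adjusted p = 0.000384 and 0.00785). Mlxip (0.35 ± 0.07 SE), a partner of MLX, and Max (0.16 ± 0.05 SE) were the others in Treg, and the antagonist gene Mxd3 (2.18 ± 0.36 SE) the other in Tcon (limma, adjusted p = 0.00511, 0.0401 and 0.00548). Of 13 measured genes that MYC activates, 2 fell in Treg, the nucleolar genes Npm1 (-0.22 ± 0.06 SE) and Fbl (-0.17 ± 0.05 SE), and 1 rose in Tcon, Bop1 (0.40 ± 0.08 SE), with limma adjusted p of 0.0224, 0.0418 and 0.0105. The Mxd4, Mxd3, Mlxip and Bop1 calls held in all 8 fits that leave out 1 library, but that of Max held in 1, that of Npm1 in 3 and that of Fbl in 1. With the replicate block, 5 network genes rose and 1 fell in Tcon, and 5 MYC-activated genes rose and 1 fell, where 8.92% of all genes rose and 7.9% fell.

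**Figure D5:**
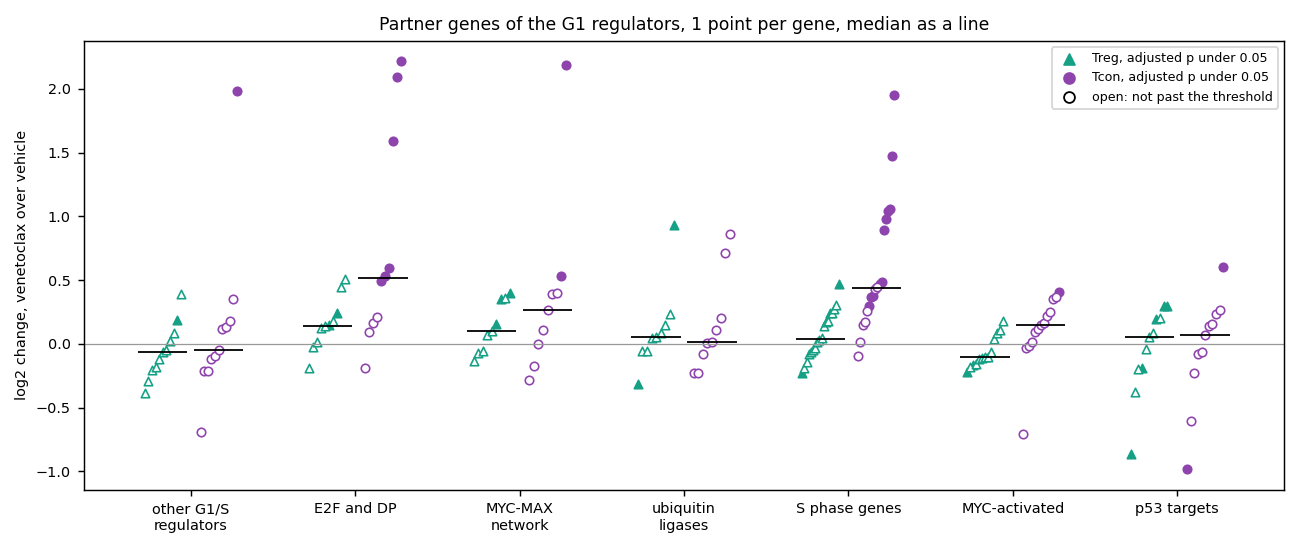
Log2 change of venetoclax over vehicle for each measured gene of 7 lists around the G1 regulators, in Treg (triangles) and Tcon (circles); filled points have a limma adjusted p under 0.05 and lines are medians. The E2F and S-phase lists of Tcon hold 6 and 11 filled points above 0, against 2 and 2 in Treg. Of all genes, 3.92% were called higher in Tcon and 10.7% in Treg.

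Of 9 measured ubiquitin ligase genes that act on cyclins, p27 and MYC, 1 rose and 1 fell in Treg, where 10.7% of all genes rose and 8.81% fell. Skp2, the subunit that recognises p27, had 179 ± 28.5 normalized counts in Treg with venetoclax and 92.6 ± 8.74 with vehicle, a log2 change of 0.93 ± 0.13 (SE) (limma, adjusted p = 0.000604). In Tcon Skp2 had 137 ± 26.4 with venetoclax and 83.2 ± 19.5 with vehicle, a log2 change of 0.72 ± 0.19 (SE) that fell just short of the threshold (limma, adjusted p = 0.0513). Btrc, for another substrate-recognition subunit, fell in Treg by 0.31 ± 0.06 (SE) on the log2 scale (limma, adjusted p = 0.00278). limma and edgeR called none of the 9 in Tcon (4 at an unadjusted limma p under 0.05), where DESeq2 called 1 and limma with the replicate block called 3, all higher. Of all genes in Tcon, limma called 6.91% without the block, and 8.92% were called higher with it. Skp2 RNA thus passed the test in Treg, where Cdkn1b RNA did not. Its change was not shown to differ between the subsets (Treg minus Tcon 0.22 ± 0.24 SE; limma, adjusted p = 0.884).

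Of 11 measured p53 targets other than Cdkn1a, 3 rose and 2 fell in Treg and 1 rose and 1 fell in Tcon. Beside them, 10.7% of all genes rose and 8.81% fell in Treg, and 3.92% rose and 2.99% fell in Tcon. Gadd45a, a growth arrest and DNA damage gene, fell in both, to 204 ± 27.5 in Treg with venetoclax against 374 ± 70.4 with vehicle, and to 173 ± 47.2 in Tcon with venetoclax against 347 ± 126 with vehicle (limma, adjusted p = 0.00083 and 0.0466). The Treg genes that rose were Trp53inp1 (0.30 ± 0.06 SE), Zmat3 (0.30 ± 0.07 SE) and Ccng1 (0.19 ± 0.05 SE), and Bax, for the pore-forming death protein, fell by 0.19 ± 0.05 (SE) (limma, adjusted p = 0.00339, 0.0123, 0.015 and 0.0212), the last 2 genes being named after their values were seen. Sesn2, a stress-response gene, was the gene that rose in Tcon (0.61 ± 0.15 SE; limma, adjusted p = 0.0386), and the Tcon calls of Gadd45a and Sesn2 held in only 1 and 3 of 8 fits that leave out 1 library. Bax lost its call without vehicle 1, venetoclax 1 or venetoclax 4.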

How the data were processed

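RNA-seq of 16 libraries was analysed, 4 for each combination of subset and treatment. The submitters' processing notes name HISAT2, SAMtools and the build mm10. The counter, its annotation, strand setting and filters were not given in the sources used. The deposited library columns hold a normalized signal: per the file headers and the values, reads per gene over a size factor that is constant within a library. Because 100.0% of the values of each column were multiples of the same step (tolerance 0.01), reads were recovered for CPM and for count models. The authors also deposited a log2 fold change of venetoclax over vehicle and its p-value, unadjusted and adjusted, by a test that is not named. These serve as an alternative only.

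Repeated lines (43 in Treg, 40 in Tcon) were dropped. In each table, log2(normalized count + 1) was fitted with limma 3.58.1 in R 4.3.3 (4 libraries per treatment, empirical Bayes with a mean-dependent prior). P-values were adjusted with the Benjamini-Hochberg method over the whole table, with a threshold of 0.05. Counts at an unadjusted p under 0.05 are given without the share over all genes, so they show no excess. For genes with few counts, a fold change on this scale depends on the pseudocount and can be too small or too large. The log2 change of Cdkn1a in Tcon was 0.68 with a pseudocount of 0.5 and 0.22 with 5. The difference between subsets was the interaction over all 16 libraries, without a block for the code. edgeR 4.0.16 and DESeq2 1.42.0 on recovered reads, other scalings, pseudocounts and filters, a replicate block, left-out libraries and a Ddx3y covariate were alternatives. On simulated counts with known changes, limma recovered 94% of 1.5-fold changes in the Treg design and 66% in the Tcon design (50 genes each). It made 15 false calls in the Treg design and 12 in the Tcon design. The changed genes had a mean of at least 50 normalized counts, so the rates do not cover Cdkn1a. Counts were drawn independently, without differences by replicate number or Ddx3y level. P-values measure the spread between these libraries. Where a library has 0 reads, up to 3 are possible from counting error alone.

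Deviations from group means of same-numbered Tcon venetoclax and vehicle libraries correlated at 0.119, 0.555, 0.614 and 0.272. Venetoclax library 1 of Tcon correlated more with vehicle 2 (0.292) and vehicle 4 (0.223), and venetoclax 4 with vehicle 1 at 0.252. The labels do not say that numbers pair the treatments, so that block is an alternative only. Treg and Tcon libraries of 1 code correlated at 0.461 to 0.766, so codes were taken to pair the subsets. The main fit of the difference left this pairing out, and the fit with the code as a block took it up. The genes and lists were chosen with earlier results of these data known: all 10 genes are named, and up to 3 genes per list and subset with the smallest p among those past the threshold. Length-scaled levels use GENCODE vM21 exonic lengths, joined over all transcripts of a gene.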

Additional observations from a re-analysis of the deposited data

Results flagged for a closer look

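Within 40 groups of 4 libraries (10 genes in 4 groups), 4 held a library far from the other 3, where chance gives about 1 in 20. In Tcon of venetoclax-treated mice, Ccnd3 was lowest in library 4 at 5342 normalized counts, against 6396 or more in the other 3. Cdkn2d was highest in venetoclax library 3 of Tcon at 2157, against 1839.8 or less in the others. In Tcon of vehicle-treated mice, Cdk6 was lowest in library 3 at 129, against 153.9 or more, and Rb1 was highest in library 4 at 2063, against 1883 or less. Ccnd3 and Cdk6 passed the test in Tcon without these libraries too.

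The venetoclax effect differed between subsets for Ccnd3, by -0.68 on the log2 scale (Treg minus Tcon; limma, adjusted p = 0.00131), and for Cdkn1b, by 0.42 (limma, adjusted p = 0.0353).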

How the results depend on the processing

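Main counts of genes past the threshold were 2164 in Treg (1189 higher, 975 lower), 772 in Tcon and 140 for the difference, and of the 10 genes 3, 4 and 2. Upper quartile scaling turned the Treg split to 969 higher and 1348 lower, added Rb1 in Treg (limma, adjusted p = 0.0324) and kept the other calls. Changes of pseudocount, the filter on low values, TMM scaling and edgeR kept the member counts; edgeR on recovered reads called 2195 genes in Treg, 786 in Tcon and 141 for the difference. DESeq2 called 1371 genes in Tcon and 295 for the difference, and 1257 in Tcon passed by the authors' deposited table. With the replicate block, 1880 genes passed in Tcon (6 of the 10) and 389 for the difference (4 of the 10). In Treg, where same-numbered libraries correlated at -0.039 to 0.414, the block gave 2467 and left 3 of the 10. In both subsets, venetoclax and vehicle libraries share only a number. Without both number-3 libraries 1028 genes passed in Treg and 1443 in Tcon, and 1 of the 10 for the difference. With Ddx3y as a covariate 326 passed in Tcon. Without venetoclax 1 and 3, 614 passed in Treg, 116 in Tcon and 4 for the difference (0 of the 10). In codes with at most 1 Ddx3y read per library, with 1 venetoclax library per subset, 71 passed in Treg and 0 in Tcon and in the difference, with 0 of the 10 in each. Leaving out 1 library gave 1327 to 2198 genes in Treg and 306 to 1244 in Tcon, and 43 to 149 for the difference with 1 to 2 of the 10; the Treg extreme came without venetoclax 1 and the Tcon extremes without venetoclax 1 and vehicle 3. The cause of these moves was not tested.

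Signs turned only for values that did not pass. Cdkn1a in Tcon was -0.10 with edgeR, -0.09 with DESeq2, -0.17 without both number-3 libraries and -0.002 in the authors' deposited table; Cdkn2d in Tcon ran from -0.179 to 0.018 with 1 library left out. Myc in Treg was -0.021 with upper quartile scaling, -0.003 without both number-3 libraries, -0.059 with Ddx3y as a covariate, -0.005 in codes with at most 1 of its reads per library and -0.024 to 0.054 with 1 library left out; Cdkn1b in Treg was -0.001 with the covariate. The Cdkn2c difference was -0.12 without both number-3 libraries, -0.017 in codes with at most 1 Ddx3y read per library and -0.134 to 0.103 with 1 code left out, and the Rb1 difference -0.048 without venetoclax 1 and 3, -0.031 in the same codes and -0.001 to 0.118 with 1 code left out.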
